A study of Raphanus sativus with 9 samples.

Results

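The transcriptome of radish (*Raphanus sativus* cv. Taebaek) after 2 warm weeks that followed a cold treatment (AV) was compared with that at the end of the cold (V), which asks what is different once vernalized plants are back in warmth. All 64657 genes of the count files were carried through this comparison of 5 libraries, and 94 glucosinolate (GSLs) genes are described one by one, because they are the only RSG identifiers paired with a symbol, in the study's list by homology to Arabidopsis. The 94 identifiers carry 93 symbols, since *RsTGG2a* is given to a pair of them, and the second of the pair is written *RsTGG2a-2* here. V plants were 8 weeks old, grown in a greenhouse for 4 weeks and then kept in a cold room for 4 weeks. AV plants were 10 weeks old, with the same cold treatment followed by 2 weeks in the greenhouse. Non-vernalized plants (NV), harvested at 4 weeks of age before any cold, entered the fit and are given as context only. None of the groups carries a transgene or mutation, and every library is of the same cultivar. AV plants were older than V plants, were grown warm instead of cold, and had left the short days and sodium light of the cold room, and these differences cannot be told apart here. RNA of leaves and roots was sequenced together, so that a change within a cell type, a change in the share of leaf and root, and fewer cells of a type or less RNA per cell cannot be told apart. The RSG identifiers have no names outside the GSLs list, so that no leaf or root marker could be checked against the labelled tissue.

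Vernalization is the acquisition of the ability to flower through prolonged cold, and in radish, a biennial-type root crop of the family Brassicaceae, the return to warmth is the time when bolting can begin. GSLs are sulfur- and nitrogen-containing defence compounds of this family. Aliphatic GSLs are built from methionine, whose side chain is first lengthened, then turned into the GSLs core, and finally modified, and indolic GSLs are built from tryptophan. The MYB28 and MYB29 transcription factors activate the aliphatic genes in Arabidopsis, and MYB34, MYB51, and MYB122 the indolic genes. GSLs themselves are stored, and myrosinases such as TGG1 and TGG2 split them into toxic products when tissue is damaged. PEN2 acts on indolic GSLs in living cells that are attacked. PEN3, which is listed with it, is a transporter and does not split GSLs.

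The counts on genes were 21119531 to 27606212 per V library (n = 3) and 25719798 and 26062882 in the AV libraries (n = 2). A gene at 3 counts or fewer was treated as not detected, and 3 counts were equal to 0.107 to 0.148 CPM (counts scaled by the TMM method to a common library size) in these libraries, and this floor covers counting error only. The third deposited AV library was left out, because its counts were equal to those of AV 2 for 98.7% of 27930 genes, against 0.359% to 0.899% for the other pairs of libraries. Libraries of the same group were 1.71 to 2.39 apart, as the leading log2 fold change over the 500 most different genes of a pair, and V and AV libraries 4.13 to 4.20 apart. V 2 had the lowest share of reads outside genes (3.24%, against 4.32% to 7.67% in the other 4 libraries of this comparison), and it stands out in several genes below. Libraries are described as biological replicates. The p-values set the difference between AV and V against the spread within groups, which was estimated over NV, V, and AV together.

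A large share of the transcriptome differed between AV and V. Of 32043 genes that passed the filter on low counts, 4709 (14.7%) were higher in AV and 5409 (16.9%) lower, together 31.6%. Scaling by library totals alone turned this balance, with 5191 genes higher and 4927 lower. The threshold was an adjusted p of 0.05, from the quasi-likelihood test of edgeR and Benjamini-Hochberg adjustment across these 32043 genes. Genes that passed this threshold are called higher or lower below, whatever the size of the change. At least 2-fold changes were called for 2463 genes in the direction of AV and 3481 in the direction of V, at least 4-fold changes for 621 and 1399, and at least 8-fold changes for 170 and 652. The larger the change, the more the lower genes outnumbered the higher ones. The median log2 fold change over all genes tested was -0.02, and the middle 50% of genes lay between -0.52 and 0.43. Without AV 1, which leaves 1 AV library that is assumed to vary like the other groups, 2721 genes were higher and 3271 lower, and 2984 were higher and 3336 lower without AV 2.

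Genes of different abundance contributed unequally. Among genes with an average under 1 CPM, 7.36% were higher and 12.2% lower in AV, and between 16 and 64 CPM 18.7% were higher and 16.4% lower. In the most abundant class, over 256 CPM (482 genes), 18.7% were higher and 32.8% lower. The genes called lower held 30.9% to 31.0% of the counts in the V libraries and 14.5% to 14.6% in the AV libraries. The genes called higher held 12.2% to 13.1% of the counts in V and 27.4% to 27.7% in AV. Both classes were selected by the test on these libraries, and the shares describe them.

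**Figure D1:**
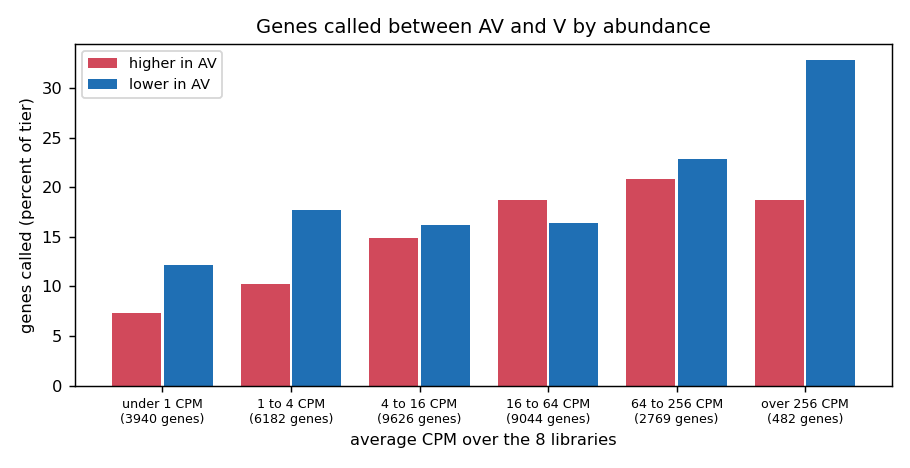
Percent of the genes tested that were called higher (red) or lower (blue) in AV than in V at an adjusted p under 0.05, in 6 classes of average CPM over the 8 libraries, with the number of genes in each class below it. Lower calls outnumber higher ones below 16 CPM and above 64 CPM, and most of all above 256 CPM (32.8% against 18.7%).

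Few genes were on in one group and off in the other. At the floor or under it in all V libraries and at 30 or more counts in both AV libraries were 7 genes, and 41 genes showed the opposite. Of the 41 genes lost in AV, *RsMYB34c* was the only listed GSLs gene. The identifiers with the largest fitted log2 fold changes, among called genes whose average log2 CPM reached 1 and whose V and AV libraries did not overlap, have no annotation here. RSG09223 rose from 0.894, 1.33, and 0.574 CPM in V to 55.1 and 50.1 CPM in AV (log2 fold change 5.83, standard error 0.33, edgeR adjusted p = 8.51e-09). In NV this gene had 6, 9, and 1 counts, so that AV was the only group in which it was abundant. RSG40780 had 0 counts in every V library and 14 and 9 counts in AV, at least 3.33-fold higher (edgeR adjusted p = 2.88e-04), with 103 to 139 counts in NV. It reached the average level through the NV libraries, its place rests on a fitted value over a group at 0 counts, and other identifiers had larger rises over measured V levels. One of these, RSG00007, named after its values were seen, had means of 1.00 CPM in V and 22.9 CPM in AV (log2 fold change 4.52, edgeR adjusted p = 5.11e-09). RSG27773 had 69, 55, and 73 counts in V and 0 in both AV libraries, at least 25.04-fold lower (edgeR adjusted p = 1.20e-06). RSG10142 had 179, 102, and 188 counts in V and 0 in AV, at least 58.8-fold lower (edgeR adjusted p = 2.00e-07). Both of these identifiers were detected in all NV and all V libraries, and a fold against a group at 0 counts is a lower bound, so that the rank of all 3 identifiers with a group at 0 is not certain.

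More of the listed GSLs genes were lower than higher in AV. Of the 94 genes, 87 passed the filter on low counts, and of these 45 were lower, 11 higher, and 31 were not called, where 16.9% of all genes tested were lower and 14.7% higher. The median log2 fold change was -0.92 over the 87 genes, or -0.70 when the 4 genes at the floor in AV are set to their bound, against -0.02 over all genes. With a minimum change of 2-fold, 40 genes were lower and 6 higher, where 10.9% and 7.69% of all genes tested were (18.6% in either direction). Libraries did not overlap for 48 genes that were lower in AV and for 18 that were higher, where 30.2% and 29.0% of all genes tested did not (59.2% in either direction). The 94 genes together held 0.715% to 0.778% of the counts in V and 0.591% to 0.609% in AV, and 0.996% to 1.17% in NV. The other 7 genes, which were not tested, had at most 28 counts over the 8 libraries together. These were *RsSOT18e*, *RsSOT18g*, *RsSOT18h*, *RsFMOGS-OX5-2*, *RsBZO1*, *RsCYP79A2b*, and *RsCYP79A2c*. Fewer of the 87 genes were higher when libraries were left out, 6 without AV 2 and 7 without AV 1 or V 1.

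**Figure D2:**
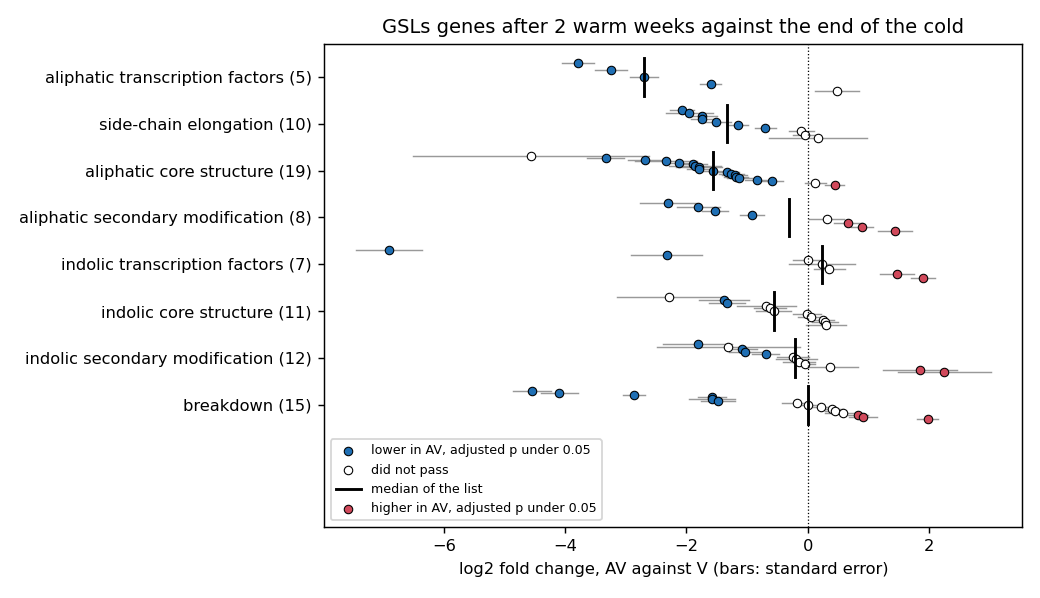
Log2 fold change (AV against V) of the 87 tested GSLs genes, each a point with its standard error, by the 8 lists of the pathway, with the number of genes tested in brackets and the median of each list as a vertical line. Aliphatic regulators, side-chain elongation and core structure lie mostly below 0 (medians -2.70, -1.33, and -1.55), and indolic and breakdown lists spread to both sides; the fitted value of *RsMYB34c*, at the far left, rests on 3 counts in AV and is not a bound.

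By branch of the pathway, the calls were as follows. Aliphatic biosynthesis, regulators included, had 31 lower and 4 higher genes among its 42 tested, and indolic biosynthesis, regulators included, had 8 lower and 4 higher among 30, where 16.9% of all genes tested were lower and 14.7% higher. The share of higher genes was no larger than that of all genes in either branch. Genes were not counted in both branches, so a step that serves both would appear in the aliphatic or the indolic count only. The *GGP1*, *SUR1*, and *UGT74B1* homologs were counted in the aliphatic core list, and the indolic core list holds no homolog of these. Breakdown genes held 6 lower and 3 higher among 15. Summed over each list, the CPM was lower in both AV libraries than in any V library for every aliphatic step, whereas the indolic regulators and the breakdown genes had higher sums in AV than in any V library. The sum of indolic secondary modification was also lower in AV, with 184, 187, and 192 CPM in V and 174 and 155 CPM in AV. Aliphatic secondary modification had sums of 212, 234, and 208 CPM in V and 127 and 119 CPM in AV. Of these, *RsGRS1* held 147, 180.4, and 141 CPM in V and 55.7 and 52.9 CPM in AV. Without this gene, the sums of that list were not lower in AV. The breakdown sum combined opposite movements. Its *PEN3* homologs had 713, 585, and 646 CPM in V and 1061 and 1481 CPM in AV, and *RsPEN2* was higher in AV as well. Its *TGG1* homologs had 704, 807, and 717 CPM in V and 433 and 435 CPM in AV, and the sums of its *TGG2* homologs overlapped. The sums were not tested, and the members are given below.

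**Figure D3:**
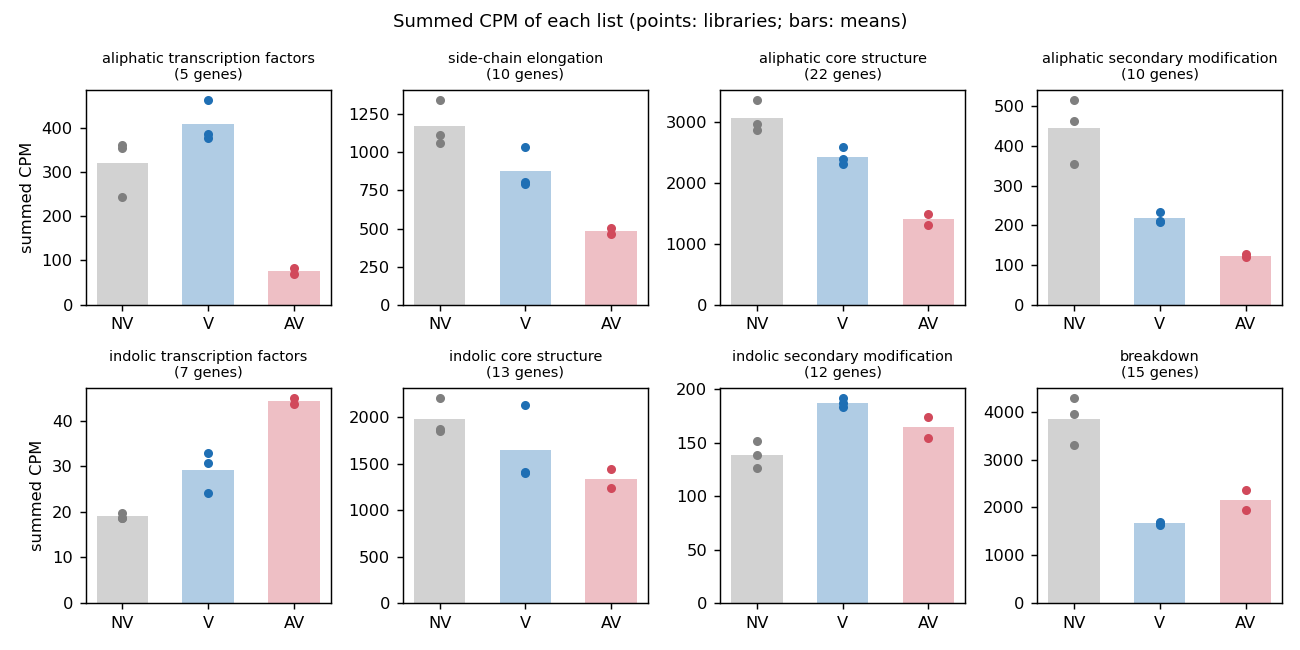
Summed CPM (linear axes from 0) of each list in NV (grey), V (blue), and AV (red), with libraries as points and group means as bars, over all members of a list. The mean of the aliphatic regulators is 408 CPM in V and 75.2 CPM in AV, that of side-chain elongation 877 and 483.5 CPM, that of core structure 2427 and 1396 CPM, and that of the indolic regulators 29.3 and 44.2 CPM.

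The aliphatic regulators were lower after the warm weeks. Of the 5 homologs of *MYB28* and *MYB29*, 4 were lower in AV and 1, *RsMYB28b*, was not called, and the median log2 fold change was -2.70. Their summed level was 408 ± 47.7 CPM in V (SD, n = 3) and 75.2 ± 9.87 CPM in AV (SD, n = 2), 5.42-fold lower in AV. Libraries are listed in the order V 1, V 2, and V 3, and AV 1 and AV 2, here and below. *RsMYB29a* (RSG00789) had 152, 192, and 157 CPM in V and 16.6 and 18.7 CPM in AV. Both AV libraries were far below the lowest V library (log2 fold change -3.24, standard error 0.26, edgeR adjusted p = 1.98e-07). *RsMYB29b* (RSG09585) had 39.1, 44.4, and 37.4 CPM in V and 2.07 and 3.72 CPM in AV. This homolog fell the most of the 5, 13.9-fold (log2 fold change -3.80, standard error 0.26, edgeR adjusted p = 4.55e-08). *RsMYB28c* (RSG53581) had 89.5, 112, and 85.2 CPM in V and 12.1 and 17.2 CPM in AV, a decrease in both AV libraries (log2 fold change -2.70, standard error 0.23, edgeR adjusted p = 3.23e-07). *RsMYB28a* (RSG16088) had 98.95, 107, and 92.8 CPM in V and 31.97 and 33.7 CPM in AV and fell less, 3.03-fold (log2 fold change -1.60, standard error 0.18, edgeR adjusted p = 5.01e-06). *RsMYB28b* (RSG23384) had 4.83, 6.69, and 3.93 CPM in V and 5.47 and 8.87 CPM in AV. Its libraries overlapped, and its change did not pass (log2 fold change 0.48, standard error 0.36, edgeR adjusted p = 0.337).

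The 4 called genes also had lower levels in AV than before the cold, which was not tested. *RsMYB28a* had 59.98 to 72.8 CPM in NV, *RsMYB28c* 48.02 to 65.6 CPM, *RsMYB29a* 116 to 204 CPM, and *RsMYB29b* 18.3 to 23.2 CPM. Both AV libraries were below every NV library for each of them. The 4 calls held in each alternative tried, and over these the list had 4 lower genes in every case.

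**Figure D4:**
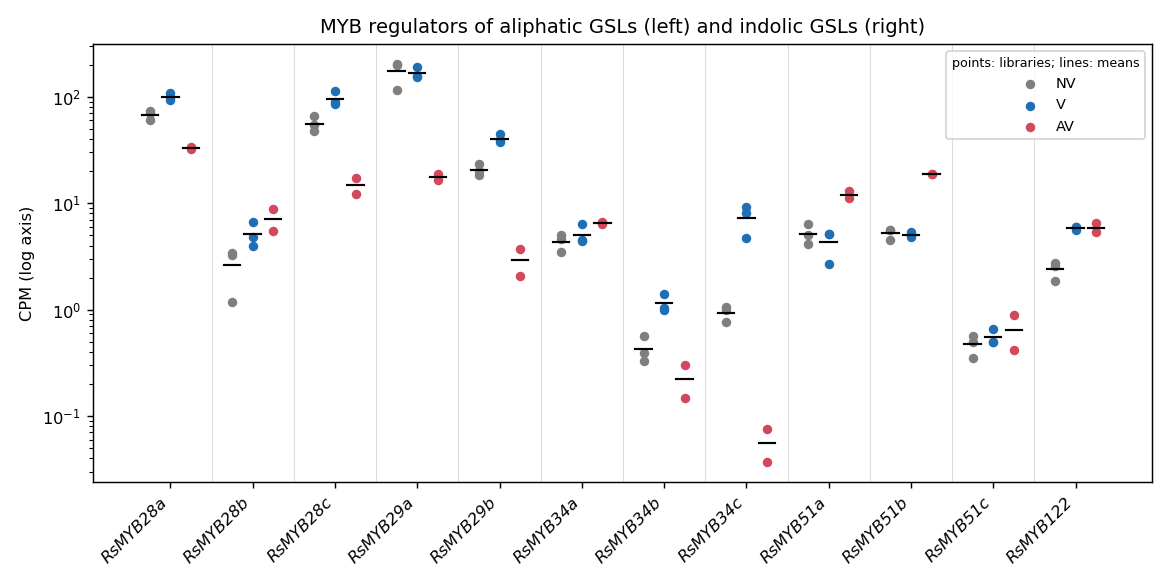
CPM (log axis) of the 5 aliphatic and 7 indolic MYB regulators in each NV (grey), V (blue), and AV (red) library, with group means as lines. *RsMYB28a*, *RsMYB28c*, *RsMYB29a*, and *RsMYB29b* sit below all V and NV libraries in AV, *RsMYB51a* and *RsMYB51b* sit above them, and *RsMYB34c* drops from 9.16, 4.67, and 8.03 CPM in V to 0.0754 and 0.0368 CPM in AV.

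Side-chain elongation, which lengthens methionine through repeated rounds of condensation, isomerization, and decarboxylation, was lower at most of its steps. Of the 10 genes, 7 were lower in AV, 0 higher, and 3 not called, and the median log2 fold change was -1.33. The summed level was 877 ± 137 CPM in V (SD, n = 3) and 484 ± 31.7 CPM in AV (SD, n = 2). *RsBCAT4* (RSG13682), the aminotransferase that starts the chain in Arabidopsis, had 127, 162, and 131 CPM in V and 43.99 and 40.01 CPM in AV. It was 3.33-fold lower in AV (log2 fold change -1.74, standard error 0.18, edgeR adjusted p = 3.28e-06). *RsBAT5* (RSG43366), which carries the keto acids into the plastid, had 15.3, 15.4, and 14.96 CPM in V and 3.54 and 4.31 CPM in AV (log2 fold change -1.95, standard error 0.39, edgeR adjusted p = 0.00126). *RsMAM1b* (RSG13852), a methylthioalkylmalate synthase of the condensation step, had 106, 165, and 109.9 CPM in V and 43.01 and 32.9 CPM in AV (log2 fold change -1.74, standard error 0.25, edgeR adjusted p = 7.07e-05). V 2 was the highest V library, and without it the decrease was smaller but held (log2 fold change -1.51, edgeR adjusted p = 1.85e-04). *RsMAM1c* (RSG24637) had 63.4, 76.2, and 72.4 CPM in V and 32.1 and 31.5 CPM in AV, with no overlap (log2 fold change -1.15, standard error 0.17, edgeR adjusted p = 8.41e-05). *RsMAM1a* had 0.286, 0.639, and 0.0883 CPM in V and 0.415 and 0.331 CPM in AV, near the floor, and was not called (log2 fold change 0.17, edgeR adjusted p = 0.896).

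Of the isomerase subunits, the small one was called and the large one was not, and the difference between them was not tested. *RsIPMI-SSU2* (RSG05959), the small subunit of the isopropylmalate isomerase, had 51.1, 49.7, and 49.9 CPM in V and 18.1 and 17.3 CPM in AV. It was lower in both AV libraries (log2 fold change -1.50, standard error 0.24, edgeR adjusted p = 1.55e-04). *RsIPMI-LSU1* (RSG39553), the large subunit, which also serves leucine synthesis in Arabidopsis, had 207, 271, and 209 CPM in V and 234 and 210.0 CPM in AV. The libraries of this gene overlapped (log2 fold change -0.05, standard error 0.19, edgeR adjusted p = 0.883). *RsIPMDH1* (RSG14423), the dehydrogenase of the decarboxylation step, had 117, 144, and 113 CPM in V and 30.3 and 28.9 CPM in AV. This was the largest change of the list, 4.21-fold lower (log2 fold change -2.08, standard error 0.20, edgeR adjusted p = 1.27e-06). The aminotransferase *RsBCAT3b* (RSG51233) had 36.6, 46.6, and 36.6 CPM in V and 25.2 and 24.1 CPM in AV (log2 fold change -0.70, standard error 0.18, edgeR adjusted p = 0.00774), and its call was lost with fewer AV libraries (adjusted p = 0.0554 without AV 1 and 0.0763 without AV 2). Its homolog *RsBCAT3a* (RSG45676) had 64.8, 103, and 69.3 CPM in V and 75.5 and 71.7 CPM in AV, with overlapping libraries (log2 fold change -0.10, standard error 0.21, edgeR adjusted p = 0.747). In NV, *RsIPMDH1* had 190.2 to 257 CPM and *RsBCAT4* 162 to 182 CPM, above all V libraries for *RsIPMDH1* and near or above the highest V library for *RsBCAT4*.

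Core structure synthesis turns the chain-elongated amino acid into the GSLs itself, and 16 of its 19 tested genes were lower in AV, 1 was higher, and 2 were not called. The median log2 fold change was -1.55, or -1.32 with *RsSOT18i* at its bound. The summed level was 2427 ± 144 CPM in V (SD, n = 3) and 1396 ± 127 CPM in AV (SD, n = 2). The first enzyme, *RsCYP79F1* (RSG07720), which makes the aldoxime, had 56.9, 49.5, and 60.1 CPM in V and 14.9 and 17.3 CPM in AV. Both AV libraries were lower (log2 fold change -1.78, standard error 0.21, edgeR adjusted p = 8.45e-06). *RsCYP83A1* (RSG12342), which oxidises the aldoxime, had 143, 163, and 137 CPM in V and 33.6 and 34.2 CPM in AV. It fell 4.36-fold (log2 fold change -2.12, standard error 0.18, edgeR adjusted p = 3.11e-07). *RsGSTF11* (RSG37909), a glutathione transferase gene, had 68.02, 43.8, and 69.9 CPM in V and 17.8 and 14.9 CPM in AV. V 2 was the lowest V library here, and both AV libraries were lower still (log2 fold change -1.89, standard error 0.22, edgeR adjusted p = 9.80e-06). *RsGSTU20* (RSG28592), of the same function, had 448, 536, and 492 CPM in V and 254 and 196 CPM in AV (log2 fold change -1.13, standard error 0.20, edgeR adjusted p = 5.37e-04). *RsSUR1* (RSG38701), the C-S lyase, had 112, 101, and 116 CPM in V and 49.5 and 47.3 CPM in AV. Its 2 AV libraries were close to each other and below all V libraries (log2 fold change -1.18, standard error 0.20, edgeR adjusted p = 3.52e-04).

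All 3 homologs of the glucosyltransferases were lower. *RsUGT74B1* (RSG35660) had 64.7, 54.9, and 67.6 CPM in V and 30.04 and 21.9 CPM in AV (log2 fold change -1.26, standard error 0.21, edgeR adjusted p = 2.30e-04). *RsUGT74C1b* (RSG13253) had 66.8, 105, and 77.95 CPM in V and 14.6 and 11.2 CPM in AV, a 6.44-fold decrease (log2 fold change -2.69, standard error 0.27, edgeR adjusted p = 1.91e-06). *RsUGT74C1a* (RSG38352) had 37.3, 51.7, and 37.9 CPM in V and 21.3 and 15.3 CPM in AV. The decrease of this homolog was smaller (log2 fold change -1.21, standard error 0.21, edgeR adjusted p = 3.82e-04), and its NV level was 16.9 to 18.2 CPM, below that of V and near that of AV. *RsUGT74C1b* had 78.2 to 131 CPM in NV, above AV in all libraries.

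Of the 3 gamma-glutamyl peptidase homologs, which process the glutathione conjugate, 1 was lower, 1 higher, and 1 not called. *RsGGP1a* (RSG01617) had 892, 689, and 1004 CPM in V and 519 and 452 CPM in AV. It was lower (log2 fold change -0.83, standard error 0.21, edgeR adjusted p = 0.00611), and the call was lost without AV 2 (adjusted p = 0.0958). *RsGGP1b* (RSG28117) had 124, 133, and 128 CPM in V and 177 and 172 CPM in AV, and was the only gene of the core structure list called higher (log2 fold change 0.44, standard error 0.16, edgeR adjusted p = 0.04). This call was near the threshold and was lost in many settings (adjusted p = 0.0615 without NV 1, 0.14 without V 1, 0.112 without V 3, 0.178 without AV 1, and 0.135 without AV 2; 0.0546 with a replicate block). *RsGGP1c* (RSG30252) had 249.6, 257, and 273 CPM in V and 294 and 274 CPM in AV, higher in both AV libraries by less than the spread the test allows for (log2 fold change 0.13, standard error 0.17, edgeR adjusted p = 0.61). Summed over the 3 homologs, the level was 1265, 1079, and 1405 CPM in V and 989.8 and 898 CPM in AV, lower in both AV libraries than in any V library.

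Sulfotransferases complete the core. Of 11 *SOT17* and *SOT18* homologs, 8 passed the filter, 7 were lower, and 1 was not called. *RsSOT17a* (RSG03557) had 28.4, 24.3, and 31.3 CPM in V and 9.76 and 9.31 CPM in AV (log2 fold change -1.55, standard error 0.19, edgeR adjusted p = 1.76e-05). *RsSOT18a* (RSG07388) had 36.8, 45.7, and 36.3 CPM in V and 17.2 and 14.4 CPM in AV (log2 fold change -1.32, standard error 0.20, edgeR adjusted p = 9.20e-05). Neither gene overlapped between the groups. *RsSOT18c* (RSG12631) had 8.58, 10.1, and 10.3 CPM in V and 1.36 and 0.552 CPM in AV, and with 10.1-fold it had the largest fitted decrease of the called core genes (log2 fold change -3.34, standard error 0.30, edgeR adjusted p = 7.49e-07), although its 2 AV libraries differed and the log2 fold change was -4.12 without AV 1 and -2.82 without AV 2. The NV level of *RsSOT18c*, 23.4 to 24.7 CPM, was above that of V in all libraries, so that its levels stepped down from NV to V to AV. *RsSOT18f* (RSG32297) had 41.8, 39.9, and 39.9 CPM in V and 29.3 and 24.7 CPM in AV. Its decrease was the smallest of the 7 (log2 fold change -0.59, standard error 0.18, edgeR adjusted p = 0.0219) and was lost when single libraries were left out (adjusted p = 0.07 without V 1, 0.0526 without V 3, 0.0589 without AV 1, and 0.205 without AV 2). Homologs with few counts also fell. *RsSOT17b* had 1.68, 1.28, and 2.16 CPM in V and 0.4901 and 0.442 CPM in AV (log2 fold change -1.87, edgeR adjusted p = 0.00357). *RsSOT18b* had 2.75, 4.43, and 3.399 CPM in V and 1.32 and 0.699 CPM in AV (log2 fold change -1.80, edgeR adjusted p = 0.00174). *RsSOT18d* had 1.47, 0.738, and 1.19 CPM in V and 0.264 and 0.184 CPM in AV (log2 fold change -2.33, edgeR adjusted p = 0.00255). Like *RsSOT17a* and *RsSOT18a*, all of these 3 were without overlap between the groups, and so were 30.2% of all genes tested in this direction. *RsSOT18i* was at or under the floor in AV and had 0 to 5 counts in V (edgeR adjusted p = 0.0898), and it passed without V 1 (adjusted p = 0.0326), with DESeq2 (0.0479), with edgeR's likelihood ratio test (0.0148), and with all 9 libraries (0.0438). *RsSOT17b* and *RsSOT18b*, *RsSOT18c*, and *RsSOT18d* carry neighbouring identifiers (RSG12630 to RSG12634), and reads that align to several homologs were not counted, so that the share of each homolog is uncertain.

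Secondary modification held changes in both directions. Among its 8 genes tested, 4 were lower (50%), 3 higher (37.5%), and 1 was not called. Of all genes tested, 16.9% were lower and 14.7% higher. The median log2 fold change of the list was -0.30. The summed level was 218 ± 14.2 CPM in V (SD, n = 3) and 123 ± 5.75 CPM in AV (SD, n = 2). *RsGRS1* (RSG02297), the radish dioxygenase that makes glucoraphasatin, the main GSLs of radish, from glucoerucin, had 147, 180.4, and 141 CPM in V and 55.7 and 52.9 CPM in AV. It was 2.88-fold lower in AV (log2 fold change -1.53, standard error 0.22, edgeR adjusted p = 7.12e-05), and NV libraries had 256 to 423 CPM. *RsGS-OH* (RSG00041), named after the Arabidopsis enzyme that hydroxylates the side chain, had 3.08, 1.82, and 5.08 CPM in V and 0.754 and 0.589 CPM in AV. The V libraries of this gene spread over more than a 2-fold range and all stayed above the AV level (log2 fold change -2.30, standard error 0.46, edgeR adjusted p = 0.00126).

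The *FMOGS-OX* genes, whose Arabidopsis counterparts oxygenate the sulfur of the side chain, were called in both directions. *RsFMOGS-OX1-1* (RSG51376) had 5.11, 3.34, and 6.44 CPM in V and 2.04 and 0.8097 CPM in AV and fell (log2 fold change -1.81, standard error 0.35, edgeR adjusted p = 0.00107), with a log2 fold change of -2.61 without AV 1 and -1.29 without AV 2. *RsFMOGS-OX1-2* (RSG57085) had 6.65, 4.43, and 6.71 CPM in V and 8.93 and 9.97 CPM in AV and was higher (log2 fold change 0.67, standard error 0.23, edgeR adjusted p = 0.0354). The sum of this pair overlapped between the groups, 11.8, 7.77, and 13.2 CPM in V and 10.97 and 10.8 CPM in AV. The higher call of *RsFMOGS-OX1-2* was lost without single libraries (adjusted p = 0.0533 without V 1, 0.0946 without V 2, 0.0969 without AV 1, and 0.193 without AV 2). *RsFMOGS-OX2-2* (RSG15645) had 20.9, 15.9, and 20.4 CPM in V and 37.7 and 33.4 CPM in AV, 1.86-fold higher (log2 fold change 0.90, standard error 0.18, edgeR adjusted p = 0.00152). Its AV level lay in the range of NV (34.6 to 43.1 CPM) or close to it. *RsFMOGS-OX2-1* (RSG57158) had 4.47, 2.51, and 2.65 CPM in V and 4.297 and 3.75 CPM in AV, with overlapping libraries (log2 fold change 0.31, standard error 0.29, edgeR adjusted p = 0.438). *RsFMOGS-OX5-1* (RSG14855) had 21.7, 23.5, and 23.2 CPM in V and 12.9 and 11.3 CPM in AV, and fell to a level near that of NV, 7.73 to 11.1 CPM (log2 fold change -0.92, standard error 0.20, edgeR adjusted p = 0.00275). Without AV 2 this call was lost (adjusted p = 0.0506). *RsAOP1* (RSG08515), a homolog of the AOP dioxygenases, had 2.43, 2.16, and 1.94 CPM in V and 5.24 and 6.62 CPM in AV, the largest rise of the aliphatic lists (log2 fold change 1.44, standard error 0.28, edgeR adjusted p = 0.00107).

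The indolic regulators moved in opposite directions, with 28.6% lower and 28.6% higher, where 16.9% and 14.7% of all genes tested were. Of the 7 homologs, the *MYB51* homologs *RsMYB51a* and *RsMYB51b* were higher in AV, the *MYB34* homologs *RsMYB34b* and *RsMYB34c* lower, and *RsMYB34a*, *RsMYB51c*, and *RsMYB122* were not called (median log2 fold change 0.24). *RsMYB51b* (RSG38989) had 5.04, 4.77, and 5.34 CPM in V and 18.8 and 18.99 CPM in AV. The AV libraries nearly coincided, 3.74-fold above V (log2 fold change 1.90, standard error 0.20, edgeR adjusted p = 3.35e-06), and the NV range was 4.55 to 5.59 CPM. *RsMYB51a* (RSG34945) had 5.08, 2.71, and 5.12 CPM in V and 11.2 and 12.9 CPM in AV, higher in both AV libraries than in any V or NV library (log2 fold change 1.48, standard error 0.27, edgeR adjusted p = 6.70e-04). *RsMYB51c* (RSG03560) had 0.501, 0.492, and 0.662 CPM in V and 0.415 and 0.883 CPM in AV. At these levels a change was not detectable (log2 fold change 0.24, standard error 0.54, edgeR adjusted p = 0.778). *RsMYB34c* (RSG19787) had 256, 95, and 182 counts in V (9.16, 4.67, and 8.03 CPM) and 2 and 1 counts in AV. It was at least 65.2-fold lower in AV (edgeR adjusted p = 1.79e-07), and NV libraries, with 0.758 to 1.06 CPM, lay between. *RsMYB34b* (RSG52510) had 1.04, 0.984, and 1.41 CPM in V and 0.302 and 0.147 CPM in AV. This decrease (log2 fold change -2.33, standard error 0.58, edgeR adjusted p = 0.00634) rests on few counts (-2.91 without AV 1) and was lost without AV 2 (adjusted p = 0.0766), which leaves 1 lower gene in the list. *RsMYB34a* (RSG13843) had 4.43, 4.48, and 6.31 CPM in V and 6.33 and 6.66 CPM in AV. Both AV libraries were above V, but the change did not pass (log2 fold change 0.36, standard error 0.25, edgeR adjusted p = 0.307). *RsMYB122* (RSG07389) had 5.54, 6.001, and 6.003 CPM in V and 6.45 and 5.300 CPM in AV and a log2 fold change near 0, 0.01 (standard error 0.25, edgeR adjusted p = 0.988).

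Summed by family, the CPM of the *MYB34* homologs was lower and that of the *MYB51* homologs higher in both AV libraries than in any V library. The *MYB34* homologs did not all fall. Means went from 7.29 CPM in V to 0.0561 CPM in AV for *RsMYB34c* and from 1.14 to 0.224 CPM for *RsMYB34b*. The mean of *RsMYB34a* went from 5.07 to 6.50 CPM. The 3 *MYB34* homologs had 14.6, 10.1, and 15.8 CPM in V and 6.71 and 6.85 CPM in AV. The 3 *MYB51* homologs had 10.6, 7.97, and 11.1 CPM in V and 30.4 and 32.8 CPM in AV. NV libraries had 4.79 to 6.35 CPM of *MYB34* and 10.3 to 11.3 CPM of *MYB51* homologs. Gene lengths were not at hand, so that levels are compared between groups and not between genes.

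Of the 11 indolic core structure genes tested, 2 were lower (18.2%, where 16.9% of all genes tested were), 0 higher, and 9 not called. Their median log2 fold change was -0.56, and -0.56 to -0.17 when single libraries were left out, with -0.24 without V 1 and -0.17 without V 2. The summed level was 1647 ± 418 CPM in V (SD, n = 3) and 1339 ± 149 CPM in AV (SD, n = 2), and the groups overlapped. *RsCYP83B1* (RSG48186), which oxidises indole-3-acetaldoxime, had 258, 197, and 253 CPM in V and 269.9 and 291 CPM in AV. It was higher in both AV libraries by less than the test required (log2 fold change 0.25, standard error 0.19, edgeR adjusted p = 0.342). CYP79B2 and CYP79B3 make the aldoxime from tryptophan in Arabidopsis, and 1 of their 4 homologs was called. *RsCYP79B2a* had 11.98, 8.36, and 9.18 CPM in V and 10.6 and 10.05 CPM in AV (log2 fold change 0.06, edgeR adjusted p = 0.858). *RsCYP79B3* had 1.97, 1.13, and 1.81 CPM in V and 2.15 and 1.91 CPM in AV (log2 fold change 0.30, edgeR adjusted p = 0.532). *RsCYP79B2b*, the called homolog, had 1.97, 1.18, and 1.63 CPM in V and 0.679 and 0.552 CPM in AV (log2 fold change -1.38, standard error 0.41, edgeR adjusted p = 0.018). That call was lost without single libraries (adjusted p = 0.0856 without V 1, 0.0653 without AV 1, and 0.119 without AV 2). *RsCYP79B2c*, with 1.04, 1.23, and 1.06 CPM in V and 0.528 and 0.846 CPM in AV, did not overlap between the groups and was not called (log2 fold change -0.68, edgeR adjusted p = 0.315). *RsCYP79A2a*, which belongs to a family that acts on phenylalanine in Arabidopsis, was at or under the floor in AV and at 6 to 11 counts in V, at least 3.43-fold lower, and was not called (edgeR adjusted p = 0.0555), although it passed edgeR's likelihood ratio test (adjusted p = 0.0111).

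The glutathione transferase genes of the indolic list varied within V, with V 2 apart. *RsGSTF9a* (RSG18947) had 452, 876, and 430.0 CPM in V and 258 and 209.7 CPM in AV. V 2 stood far above the other V libraries, and both AV libraries were below all of them (log2 fold change -1.32, standard error 0.30, edgeR adjusted p = 0.00284). Without V 2 the decrease was smaller and still passed (log2 fold change -0.91, edgeR adjusted p = 0.00624), and without AV 2 it did not (adjusted p = 0.0580). *RsGSTF9b* (RSG32253) had 197, 406, and 191 CPM in V and 198 and 161 CPM in AV, with V 2 again the highest. Its libraries overlapped (log2 fold change -0.56, standard error 0.29, edgeR adjusted p = 0.162), and without V 2 the difference nearly vanished (log2 fold change -0.11, edgeR adjusted p = 0.725). *RsGSTF9b* passed with a replicate block in the fit (adjusted p = 0.0312) and without the filter on low counts (0.0221). *RsGSTF10* (RSG32254) had 379, 573, and 416 CPM in V and 623 and 494 CPM in AV (log2 fold change 0.29, standard error 0.21, edgeR adjusted p = 0.322). The sulfotransferase gene *RsSOT16a* (RSG07387) had 47.5, 34.4, and 53.1 CPM in V and 31.1 and 27.4 CPM in AV, lower in both AV libraries and not called (log2 fold change -0.62, standard error 0.26, edgeR adjusted p = 0.0834), and it passed without V 2, where the adjusted p was 0.0384, and without NV 2 or NV 3, where it was 0.0243 and 0.0296, and in 3 other settings. Its homolog *RsSOT16b* had 51.7, 30.5, and 51.6 CPM in V and 50.1 and 38.3 CPM in AV (log2 fold change -0.01, edgeR adjusted p = 0.972). The lower genes of the indolic core list were 0 without AV 2 and 1 without AV 1 or V 1.

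In indolic secondary modification, CYP81F enzymes hydroxylate the indole ring and IGMT enzymes methylate it in Arabidopsis. Of its 12 genes tested, 4 were lower (33.3%), 2 higher (16.7%), and 6 not called. Of all genes tested, 16.9% were lower and 14.7% higher. The median log2 fold change of the list was -0.21 (-0.37 to -0.05 when single libraries were left out). *RsCYP81F4* (RSG10180) had 12.9, 11.1, and 13.9 CPM in V and 5.69 and 6.18 CPM in AV. It was 2.13-fold lower in AV (log2 fold change -1.09, standard error 0.25, edgeR adjusted p = 0.00328), and NV libraries, at 0.332 to 0.737 CPM, were far below both. Its call was lost without AV 1 (adjusted p = 0.0503). *RsIGMT2* (RSG15204) had 10.4, 15.1, and 13.2 CPM in V and 7.73 and 4.89 CPM in AV (log2 fold change -1.03, standard error 0.26, edgeR adjusted p = 0.00727), and this was lost without AV 2 (adjusted p = 0.130). The 3 *IGMT1* homologs overlapped between groups and had 23.1, 35.5, and 22.3 CPM in V and 23.7 and 23.5 CPM in AV in sum. *RsIGMT5* (RSG06937) had 127, 113, and 129 CPM in V and 127 and 112 CPM in AV and a log2 fold change near 0, -0.04 (standard error 0.17, edgeR adjusted p = 0.881). *RsIGMT1a* and *RsIGMT2* have consecutive identifiers and may share reads.

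The other calls of the list were weak. *RsCYP81F2d* (RSG40296) had 8.33, 8.07, and 10.5 CPM in V and 6.22 and 4.86 CPM in AV (log2 fold change -0.69, standard error 0.23, edgeR adjusted p = 0.0287), and the adjusted p was 0.12 without V 3, 0.0579 without AV 1, and 0.243 without AV 2. *RsCYP81F3a* had 1.14, 1.57, and 1.46 CPM in V and 0.113 and 0.662 CPM in AV, with a wide gap between the AV libraries (log2 fold change -1.82, edgeR adjusted p = 0.0242). Its log2 fold change was -1.06 without AV 1 and -3.55 without AV 2, and the adjusted p was 0.0549 without V 2, 0.0516 without V 3, and 0.22 without AV 1. *RsCYP81F2c* rose from 0.215, 0.295, and 0.0441 CPM to 1.09 and 0.699 CPM (log2 fold change 2.26, edgeR adjusted p = 0.0345), and the adjusted p was 0.0697 without V 1, 0.112 without V 3, 0.215 without AV 1, and 0.073 without AV 2. *RsCYP81F3b* rose from 0.215, 0.344, and 0.0441 CPM to 0.829 and 0.626 CPM (log2 fold change 1.85, edgeR adjusted p = 0.0305), and the adjusted p was 0.0675 without V 1, 0.106 without V 3, 0.162 without AV 1, and 0.0659 without AV 2. Both rises start at or near the detection floor. *RsCYP81F2a* had 0.823, 1.77, and 0.839 CPM in V and 1.24 and 1.69 CPM in AV and was not called (log2 fold change 0.38, edgeR adjusted p = 0.561), and *RsCYP81F2b* was at or under the floor in AV. Of this list, 0 genes were higher without AV 1, AV 2, V 1, or V 3, and the lower genes were 1 without AV 1 and 2 without AV 2 or V 3.

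Among the breakdown genes, the lower calls were all of myrosinase homologs and the higher ones of *RsPEN2*, *RsPEN3b*, and *RsPEN3c*. Of the 8 *TGG1* homologs, 5 were lower in AV and 3 not called, and of the 3 *TGG2* homologs 1 was lower and 2 were not called. The median log2 fold change over the 15 breakdown genes was 0.01, 0.22 without V 2, and -0.16 without AV 2. *RsTGG1e* (RSG36879) had 183, 200.2, and 192 CPM in V and 26.2 and 26.5 CPM in AV. The AV libraries were close to each other and were 7.28-fold below V (log2 fold change -2.86, standard error 0.18, edgeR adjusted p = 1.96e-08). *RsTGG1a* (RSG23127) had 228, 238, and 225 CPM in V and 75.7 and 78.8 CPM in AV, a 2.99-fold decrease (log2 fold change -1.58, standard error 0.23, edgeR adjusted p = 7.02e-05). *RsTGG1f* (RSG40666) had 28.7, 32.1, and 28.1 CPM in V and 1.09 and 1.44 CPM in AV. At 23.3-fold it fell the most of the breakdown genes (log2 fold change -4.54, standard error 0.31, edgeR adjusted p = 4.65e-08). *RsTGG1b* (RSG25390) had 24.3, 27.5, and 24.9 CPM in V and 0.9801 and 1.99 CPM in AV, 17.1-fold lower (log2 fold change -4.10, standard error 0.31, edgeR adjusted p = 1.09e-07), with a log2 fold change of -4.69 without AV 2. *RsTGG1g* (RSG48132) had 16.3, 22.1, and 16.8 CPM in V and 4.98 and 8.24 CPM in AV (log2 fold change -1.47, standard error 0.28, edgeR adjusted p = 7.96e-04). *RsTGG2c* (RSG40189) had 2.83, 4.72, and 2.07 CPM in V and 1.32 and 0.8097 CPM in AV (log2 fold change -1.58, standard error 0.38, edgeR adjusted p = 0.00453), and this call was lost without AV 2 (adjusted p = 0.0809).

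The other 5 myrosinase homologs were not called. *RsTGG1c* (RSG30299) had 80.4, 90.6, and 73.6 CPM in V and 94.7 and 96.4 CPM in AV, against 954 to 1538 CPM in NV. Both AV libraries were above V, by a small amount (log2 fold change 0.23, standard error 0.20, edgeR adjusted p = 0.419). *RsTGG1d* (RSG33328) had 117, 161, and 127 CPM in V and 187 and 185 CPM in AV, against 701 to 789 CPM in NV. It was close to the threshold (log2 fold change 0.46, standard error 0.18, edgeR adjusted p = 0.0612) and passed without V 2, NV 2, or NV 3 (adjusted p = 0.0477 without NV 2, 0.0431 without NV 3, and 0.00986 without V 2) and in 4 other settings. *RsTGG1h* (RSG52100) had 26.03, 34.9, and 28.5 CPM in V and 42.3 and 36.9 CPM in AV (log2 fold change 0.41, standard error 0.18, edgeR adjusted p = 0.0948), and it passed without V 2 (adjusted p = 0.0293). *RsTGG2a* (RSG30297) had 28.7, 38.2, and 22.8 CPM in V and 26.6 and 33.6 CPM in AV, against 239.7 to 348 CPM in NV (log2 fold change 0.01, edgeR adjusted p = 0.979). *RsTGG2a-2* (RSG30298) had 17.6, 19.97, and 17.6 CPM in V and 13.8 and 18.7 CPM in AV (log2 fold change -0.18, edgeR adjusted p = 0.615). *RsTGG1c*, *RsTGG2a*, and *RsTGG2a-2* have consecutive identifiers (RSG30297 to RSG30299), so that reads may be shared or lost between them. Summed over the 8 *TGG1* homologs, the level was 704, 807, and 717 CPM in V and 433 and 435 CPM in AV.

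*RsPEN2* (RSG16059), an atypical myrosinase for indolic GSLs in Arabidopsis, had 208, 247, and 224 CPM in V and 416 and 392 CPM in AV. It was 1.79-fold higher in AV, with both AV libraries above every V and NV library (log2 fold change 0.84, standard error 0.17, edgeR adjusted p = 0.00114). The homologs of *PEN3*, which encodes an ABC transporter, were all higher in the AV libraries than in the V libraries, and 2 of 3 were called. Of all genes tested, 29.0% were without overlap in this direction and 14.7% were called higher. *RsPEN3b* (RSG04372) had 94.6, 84.6, and 90.6 CPM in V and 318 and 393 CPM in AV, 3.95-fold higher and the largest rise of the breakdown genes (log2 fold change 1.98, standard error 0.17, edgeR adjusted p = 4.50e-07). *RsPEN3c* (RSG05840) had 237, 193, and 207 CPM in V and 343 and 456 CPM in AV (log2 fold change 0.91, standard error 0.24, edgeR adjusted p = 0.00768), and this was lost without AV 2 (adjusted p = 0.132). *RsPEN3a* (RSG17445) had 381, 308, and 349 CPM in V and 401 and 632 CPM in AV. The AV libraries were far apart, and the change did not pass (log2 fold change 0.58, standard error 0.29, edgeR adjusted p = 0.152), although it did without NV 2 (adjusted p = 0.0272), with V and AV libraries only (0.0334), and without the filter on low counts (0.0156). PEN3 is known for the transport of compounds other than GSLs in Arabidopsis. Without V 2 or NV 2, 5 breakdown genes were higher instead of 3.

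**Figure D5:**
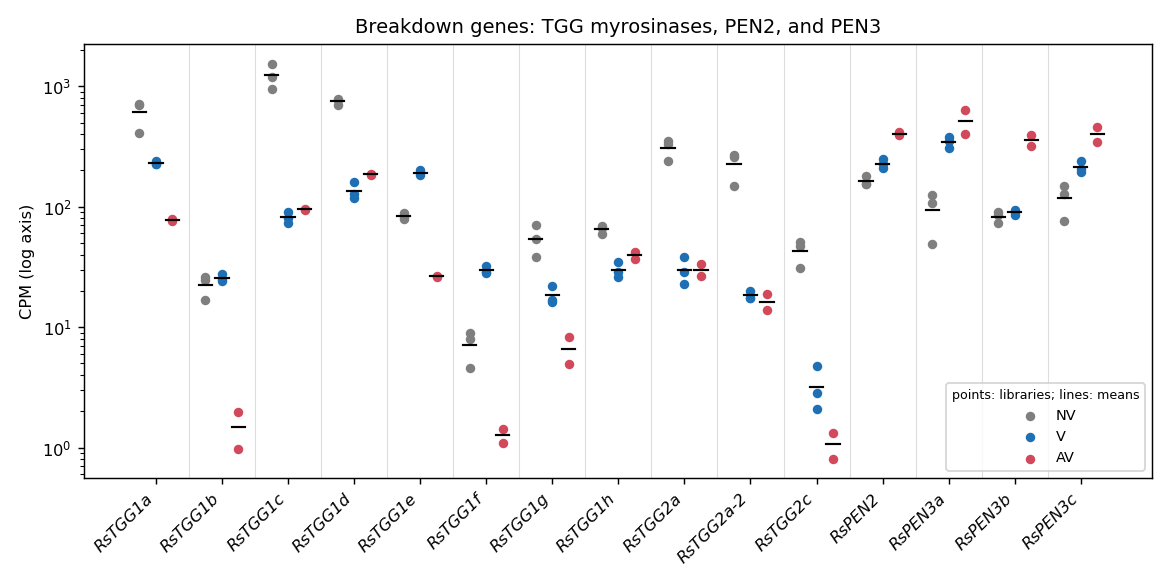
CPM (log axis) of the 15 breakdown genes in each NV (grey), V (blue), and AV (red) library, with group means as lines. *RsTGG1a*, *RsTGG1b*, *RsTGG1e*, *RsTGG1f*, *RsTGG1g*, and *RsTGG2c* lie lower in AV than in V, *RsTGG1c*, *RsTGG2a*, and *RsTGG2a-2* are near their V level and far below NV, and *RsPEN2* and the *PEN3* homologs lie higher in AV.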

How the data were processed

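Stranded mRNA libraries of leaf and root RNA, 3 biological replicates per group, were sequenced on an Illumina platform. After a quality check in FastQC and trimming, the authors aligned the reads with TopHat2 to the radish genome of the Nodai database and deposited HTSeq's raw counts of reads per gene without normalization. Versions, strand setting, and counting mode are not given in the sources used here. Whether a count stands for a single read or a read pair is not given either. HTSeq's rows of reads not assigned to a gene (4.27% to 8.89% of the listed reads) were left out. The labels name both whole seedlings and leaf and roots as the tissue. No column belonged to another sample.

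AV 3 was left out as near-identical to AV 2. The other 8 libraries (21119531 to 27606212 counts on genes) were fitted together, with a mean per group, in edgeR 4.0.16 (R 4.3.3) with TMM factors, filterByExpr, glmQLFit with robust estimation, and glmQLFTest for AV minus V, with Benjamini-Hochberg adjustment over the 32043 genes tested. Calls have an adjusted p under 0.05. The standard error is the size of the log2 fold change divided by the root of the F statistic, and CPM values are TMM-scaled. A fold against a group at or under 3 counts in every library is a lower bound against that floor in each library. The code was run on simulated counts with known changes and the same spread set for every gene, a check of the code and not of these data. An exact permutation of 3 libraries against 2 cannot reach 0.05 for any gene.

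Named genes were the 94 identifiers (93 symbols) of the study's list, with values per library for called members of at least 10 CPM in V or AV or at least 2-fold change and for homologs that did not pass, and the RSG identifiers with the largest fitted rises (2) and falls (2). The members and lists were chosen with earlier results of these data known. None of the RSG identifiers matched the RefSeq table (0 matches), and positions and sequences were not used here. Alternatives were other normalizations, filters, and tests (limma 3.58.1 was loaded by edgeR, and DESeq2 1.42.0 was run), V and AV libraries only, other treatments of AV 2 and AV 3, a replicate block, each library left out, and a minimum change of 2-fold.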

Additional observations from a re-analysis of the deposited data

How the results depend on the processing

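No call of a listed GSLs gene or of RSG40780, RSG09223, RSG27773, or RSG10142 changed direction in any alternative. RSG00007 was not followed through the alternatives. Of the 56 called GSLs genes, 39 were called in every other fit. AV rests on 2 libraries. When each library was left out in turn (8 fits), 2721 to 5448 of all genes were higher in AV and 3271 to 6077 lower, and of the listed genes 6 to 13 were higher and 35 to 46 lower. By list, the range of higher genes was 0 to 1 for aliphatic core structure, 0 to 2 for indolic secondary modification, and 2 to 5 for breakdown, and the range of lower genes was 1 to 2 for indolic regulators, 0 to 3 for indolic core structure, and 1 to 4 for indolic secondary modification. Without AV 2, 15 listed calls were lost, without AV 1 10, and without V 1 or V 3 6 each. The higher call of the aliphatic core list was lost (0 genes) with upper quartile factors, without a filter on low counts, with the replicate block, and with a minimum change of 2-fold. Without that filter 4 indolic core genes were lower, and with V and AV libraries only 5 breakdown genes were higher. A minimum change of 2-fold left 2463 genes higher and 3481 lower, 6 of them listed genes that were higher, with 1 in aliphatic secondary modification and 1 in breakdown. All 9 deposited libraries gave 6090 higher and 6975 lower genes, because the near-identical pair narrows the spread by construction. DESeq2 gave 4901 and 5684, and AV 3 in place of AV 2 gave 4708 and 5408. Library totals alone as the scaling gave 5191 higher and 4927 lower genes, which turned the balance, and the scalings moved the median of all genes by at most 0.05. Without the low-count filter, the median of aliphatic secondary modification moved from -0.30 to 0.31. This setting adds *RsFMOGS-OX5-2*, with 10 counts over the 8 libraries, to the list, whereas *RsBZO1* had 0 counts and stayed out. V and AV share the replicate numbers 1 and 2, and deviations from the group mean had r = -0.04 and 0.01 between same-numbered libraries. With 2 AV libraries these deviations are mirror images, so this cannot decide whether the libraries are paired. Between NV and V, r was 0.05, 0.23, and 0.11 for same-numbered libraries and -0.19 to 0.15 for the others. A replicate block in the fit gave 4766 higher and 5504 lower genes. It ended the calls of *RsGGP1b* (log2 fold change 0.46, adjusted p = 0.0546) and *RsCYP81F2d* (-0.57, adjusted p = 0.0563), added that of *RsGSTF9b* (-0.69, adjusted p = 0.0312), and changed no other listed call. Depth limits the values of genes near the floor of 0.107 to 0.148 CPM. Calls that were lost when an AV library was left out included genes above the floor and with changes over 2-fold, such as *RsGSTF9a*, *RsIGMT2*, and *RsCYP81F4*.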

Other observations

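Between AV 2 and AV 3, 376 of 64657 genes had unequal counts, and for 371 of these the difference was 1 or 2. HTSeq's totals of unassigned reads were identical in both libraries. In 2 genes, the AV 3 count was that of AV 2 without 1 of its digits.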
